A study of Mus musculus with 8 samples.

Results

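The Polycomb genes described here are 38 genes that encode the core and accessory subunits of the Polycomb repressive complexes, the deubiquitinase that opposes one of them and the demethylases that oppose the other. They were chosen by gene symbol, with earlier results of these data known, and all 38 were found among the 35976 gene symbols of the count table. Shares of the members set beside shares of all genes are therefore given as description. RNA was sequenced from full-grown mouse oocytes, in libraries that each pooled about 20 oocytes from which the zona pellucida, the egg's protein coat, had been taken off. There were 4 groups of 2 libraries each. H2A.Z control oocytes were set against oocytes labelled H2A.Z DKO, a name for the loss of both genes of the histone variant H2A.Z, H2afz and H2afv. Mll2 WT oocytes were set against Mll2 KO oocytes, which lack the histone H3K4 methyltransferase MLL2, encoded by Kmt2b. The way the deletions were made, the strain and the age of the animals are, in the sources used here, not given, nor is whether replicates came from separate animals, so p-values measure the spread between these libraries.

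Polycomb complexes hold genes silent by modifying histones. PRC2 methylates lysine 27 of histone H3 through EZH1 or EZH2, and PRC1 ubiquitinates lysine 119 of histone H2A through RING1 or RNF2 paired with a PCGF protein. In the mouse oocyte, Polycomb marks are known to be passed to the embryo, where they underlie a form of imprinting that does not depend on DNA methylation, and MLL2 is the enzyme that lays down broad H3K4 methylation outside promoters.

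Library totals ran from 20309233 to 30087863 counts. Levels below are counts per 1000000 (CPM), on library totals multiplied by TMM factors, which edgeR takes from a trimmed mean of log ratios. Both H2A.Z genes went against the DKO label: H2afz read 23.9 and 29.9 CPM in the controls against 322 and 317 CPM in those labelled DKO, and H2afv read 108 and 107 against 285 and 294 CPM. Every direction given for the DKO-labelled libraries therefore rests on a label that its own target genes do not bear out at the level of whole-gene counts. Kmt2b followed its label, with 41.9 and 42.4 CPM in Mll2 WT against 8.73 and 9.27 CPM in Mll2 KO. H2afz was also higher in Mll2 KO, at 7.04 and 7.09 CPM in WT against 19.4 and 15 CPM in KO (1.28 on the log2 scale, adjusted p = 1.21e-05), and Kmt2b was higher in the DKO-labelled libraries by 0.49 (adjusted p = 0.018). Both Mll2 KO libraries lay further apart than other replicates. Over the 27 Polycomb genes at 10 CPM or more, their median gap was 0.23 on the log2 scale, against 0.07 to 0.1 in the other groups. The spread of each gene was estimated over all 4 groups together. Errors and p-values of the Mll2 comparison thus draw partly on the closer replicates of other groups. Those of the DKO-labelled comparison draw partly on the wider Mll2 KO spread. All 12 oocyte markers were present in every group, with summed levels of 15900 to 18100 CPM in Mll2 KO, 18600 to 23000 in Mll2 WT, 25000 to 26000 in the H2A.Z controls and 23800 to 27200 in the DKO-labelled libraries. The 14 granulosa and cumulus markers summed to 84.4 to 87.1 CPM in both control groups, 115 to 118 in the DKO-labelled libraries and 97.3 to 97.5 in Mll2 KO, mostly from Nr5a2, Cyp19a1 and Fshr, while Amh was at 0 in all but the H2A.Z controls, where it read at most 0.0517 CPM. The 10 theca and stroma markers summed to 2.54 to 6.38 CPM, with Col3a1 and Tagln at 0 throughout. The 10 blood, immune and endothelial markers summed to 22.2 to 44.5 CPM, mostly from Pecam1, with Hba-a1, Hbb-bs and Cdh5 at 0 throughout. The part of these markers in the results below was not tested. In bulk libraries, fewer cells of a type and less RNA per cell cannot be told apart.

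MLL2 carries a CXXC domain that binds unmethylated CG pairs, so the density of CG pairs upstream of the members is shown for 4 of them. RefSeq promoters on GRCm38.p6, whose coordinates are those of mm10, matched 33 of the 38 genes, and Cbx2, Yaf2, Rybp, Kdm6b and Pcgf1 were not matched. Where a gene had several starts, the one with most CG pairs was used. The 250 bases upstream of the start are printed 5′ to 3′ on the gene's strand, with each CG pair in capitals. Bcorl1 had the largest difference between the mutant effects among the members called for it, Jarid2 was higher in the DKO-labelled libraries and not called in Mll2 KO, L3mbtl2 had the lowest adjusted p of the members in the Mll2 comparison, and Eed is the core subunit that was lower in Mll2 KO. Their windows are chrX:48341108-48341357 on the plus strand for Bcorl1, chr13:44730524-44730773 on the plus strand for Jarid2, chr15:81663639-81663888 on the plus strand for L3mbtl2 and chr7:89980977-89981226 on the minus strand for Eed.
Bcorl1: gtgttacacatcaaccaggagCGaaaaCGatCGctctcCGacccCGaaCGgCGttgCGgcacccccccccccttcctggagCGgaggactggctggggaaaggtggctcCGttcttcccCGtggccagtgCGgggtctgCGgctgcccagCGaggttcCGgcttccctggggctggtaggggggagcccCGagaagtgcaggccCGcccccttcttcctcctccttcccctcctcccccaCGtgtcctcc
Jarid2: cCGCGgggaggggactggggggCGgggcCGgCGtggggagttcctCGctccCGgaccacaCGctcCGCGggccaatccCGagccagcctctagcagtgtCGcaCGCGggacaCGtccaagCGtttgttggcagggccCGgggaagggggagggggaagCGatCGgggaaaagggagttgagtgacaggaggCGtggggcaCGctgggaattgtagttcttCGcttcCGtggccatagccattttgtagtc
L3mbtl2: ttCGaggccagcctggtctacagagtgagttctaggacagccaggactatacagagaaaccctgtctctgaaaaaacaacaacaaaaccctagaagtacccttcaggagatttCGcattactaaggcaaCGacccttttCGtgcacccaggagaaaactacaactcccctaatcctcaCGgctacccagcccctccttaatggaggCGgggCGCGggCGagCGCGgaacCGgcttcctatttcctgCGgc
Eed: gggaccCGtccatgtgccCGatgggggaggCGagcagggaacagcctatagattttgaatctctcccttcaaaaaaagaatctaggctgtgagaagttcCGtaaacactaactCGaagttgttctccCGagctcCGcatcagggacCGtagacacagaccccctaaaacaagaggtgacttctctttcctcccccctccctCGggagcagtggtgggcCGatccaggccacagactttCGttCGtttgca
These windows hold 18 CG pairs in Bcorl1, 23 in Jarid2, 13 in L3mbtl2 and 12 in Eed. A CG pair reads the same on both strands and was counted once.

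Over the 33 matched genes the median was 22 CG pairs, with a range of 5 to 45, against a median of 6 over all 27025 genes with a RefSeq promoter. At least 10 CG pairs were found in 93.9% of the matched Polycomb genes and in 40.2% of all genes. All genes here include many with too few counts to be tested, whereas every matched member but Pcgf2 was tested. No comparison was made with the tested genes only. Those higher in the DKO-labelled libraries had a median of 23 (n = 12) and those not called there 21.5 (n = 20). In the Mll2 comparison the medians were 13 for the genes that fell (n = 4), 22.5 for those that rose (n = 6) and 23 for those not called (n = 22). These counts are given as a description, with no test.

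The level of the members per kilobase of exon, from the union of exons in GENCODE release M21, spanned a wide range. Pcgf1, which builds the variant PRC1 with BCOR, came first in both control groups, with a mean of 1480 CPM per kb in the H2A.Z controls and 914 in Mll2 WT. Rbbp7, a histone-binding subunit that PRC2 shares with other complexes, came next at 874 and 884 CPM per kb. The next 3 were Eed at 167 and 153, Pcgf6 at 151 and 165, and Ezh2 at 102 and 167 CPM per kb.

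The catalytic pairs were unequal. Rnf2 read 31.6 and 38 CPM per kb in the H2A.Z controls and Mll2 WT. Ring1, the other gene of that pair, had 1 to 13 counts in any library. Ezh2 exceeded Ezh1, which read 7.56 and 7.94 CPM per kb. Among the PCGF genes, Pcgf2 had 0 to 5 counts a library, while Bmi1, its close relative, read 44.3 and 78.2 CPM per kb.

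The CBX genes, whose proteins read methylated H3K27, were low except for Cbx2 at 5.46 and 14.2 CPM per kb. Cbx7 reached 0.392, Cbx8 0.276 and Cbx6 0.0651 CPM per kb in whichever control group was higher. All 38 genes together summed to 5550 to 6190 CPM in every library. Pcgf2, below the minimum count, is the 1 member without a test.

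**Figure D1:**
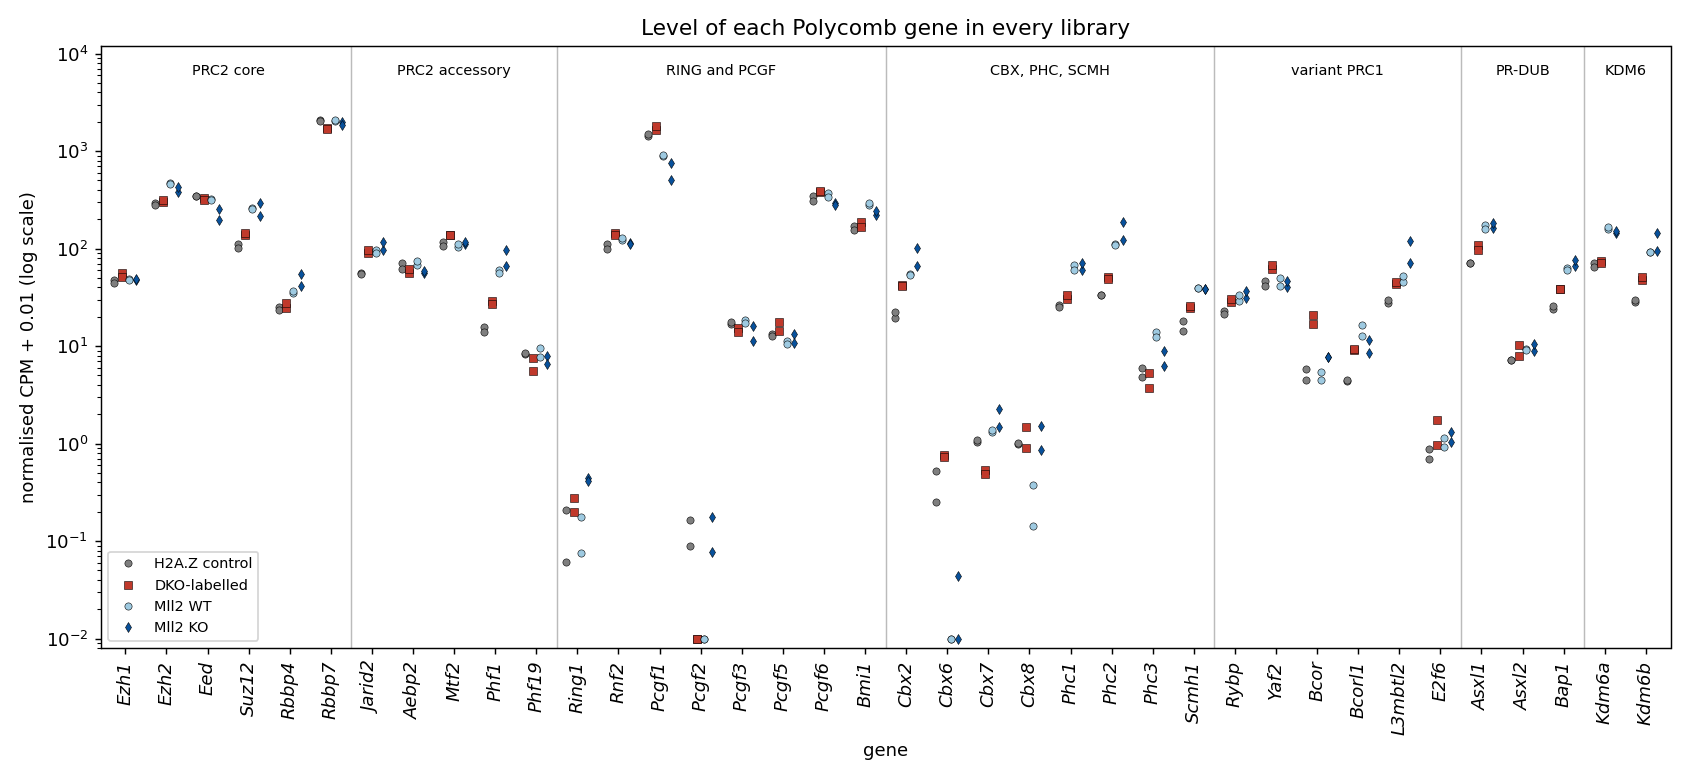
Level of each of the 38 Polycomb genes in every library, as CPM on TMM-scaled totals plus 0.01 on a log axis, grouped by role, with 1 point a library. Pcgf1 and Rbbp7 sit highest, and Ring1, Pcgf2 and Cbx6 lie below 1 CPM in every library.

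In the DKO-labelled libraries, 16 of the 37 tested Polycomb genes were higher than in the H2A.Z controls and 0 were lower. The share called higher was 43.2%, beside 19.4% of all 16847 genes tested, and 11.5% of all genes were called lower. A call is an adjusted p under 0.05 from edgeR's quasi-likelihood test with Benjamini-Hochberg adjustment over all genes tested. By role, the calls were 5 of 6 listed variant PRC1 genes, 2 of 3 genes of the deubiquitinase PR-DUB and 3 of 5 PRC2 accessory genes. They were 3 of 8 CBX, PHC and SCMH genes of canonical PRC1 and 1 of 2 demethylase genes. The rest were 1 of 6 PRC2 core genes and 1 of 7 RING and PCGF genes. Pcgf1, Pcgf3, Pcgf5 and Pcgf6, also subunits of variant PRC1, are counted among the RING and PCGF genes and were not called. The median log2 difference was 0.35 over the members and 0.12 over all genes. Both DKO-labelled libraries lay above both controls for 26 of the 37 tested members (70.3%, beside 43.4% of all genes), the 16 called among them, and below both for 5 (13.5%, beside 26.9% of all genes).

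The split of the members changed with the scaling and with the libraries in the fit. With relative log expression factors the members split into 14 higher and 1 lower, beside 16.4% and 12.4% of all genes. With library size alone they split into 12 and 1, beside 12.2% and 14.6% of all genes. The H2A.Z libraries fitted alone gave 15 and 5, beside 20.9% and 22.2% of all genes, the 5 being Aebp2, Eed, Pcgf3, Phf19 and Rbbp7. The median of all genes was 0.124 with TMM, 0.082 with relative log expression factors, 0.002 with library size alone and 0.006 with the H2A.Z libraries alone. Of all genes called, 62.9% were higher with TMM on all 8 libraries and 56.9% with relative log expression factors. The share was 45.5% with library size alone and 48.6% with the H2A.Z libraries alone. With Mll2 KO 1 or Mll2 KO 2 left out of the TMM fit, the median of all genes was 0.004 and 0.003, and without Mll2 WT 2 it was 0.003. The median over the members was 0.22 in each of these fits. Without Mll2 WT 1 the medians were 0.35 over the members and 0.126 over all genes. They were 0.36 and 0.146 without H2A.Z control 1, and 0.32 and 0.123 without H2A.Z control 2. Leaving out DKO-labelled 1 gave 0.30 and 0.109, and leaving out DKO-labelled 2 gave 0.42 and 0.117.

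In Mll2 KO, 7 of the 37 tested genes were higher than in Mll2 WT (18.9%, beside 14.4% of all genes) and 5 were lower (13.5%, beside 16.2%). The median was 0.06 over the members and 0.02 over all genes. The genes that rose were L3mbtl2, Cbx8, Bcor, Cbx2, Phf1, Phc2 and Rbbp4, and those that fell were Phc3, Pcgf1, Eed, Bmi1 and Pcgf6. Among the 7 tested RING and PCGF genes, 3 fell and 0 rose, while the CBX, PHC and SCMH genes of canonical PRC1 had 3 that rose and 1 that fell. Bmi1, which also belongs to canonical PRC1 and fell, is counted among the RING and PCGF genes. Both KO libraries lay above both WT libraries for 11 of the 37 tested members (29.7%, beside 32.2% of all genes) and below both for 13 (35.1%, beside 32% of all genes), the 12 called among them. Without Mll2 KO 2 the median was -0.06 over the members and -0.04 over all genes, and without Mll2 KO 1 it was 0.13 and 0.004. Without Mll2 WT 1 it was 0.02 and 0.023, and without Mll2 WT 2 it was 0.04 and 0.008. With DKO-labelled 1 or 2 or H2A.Z control 1 left out it was 0.06 and 0.022, and with H2A.Z control 2 left out 0.05 and 0.021. The Mll2 libraries fitted alone gave 3 higher and 2 lower, beside 10.1% and 11.3% of all genes.

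**Figure D2:**
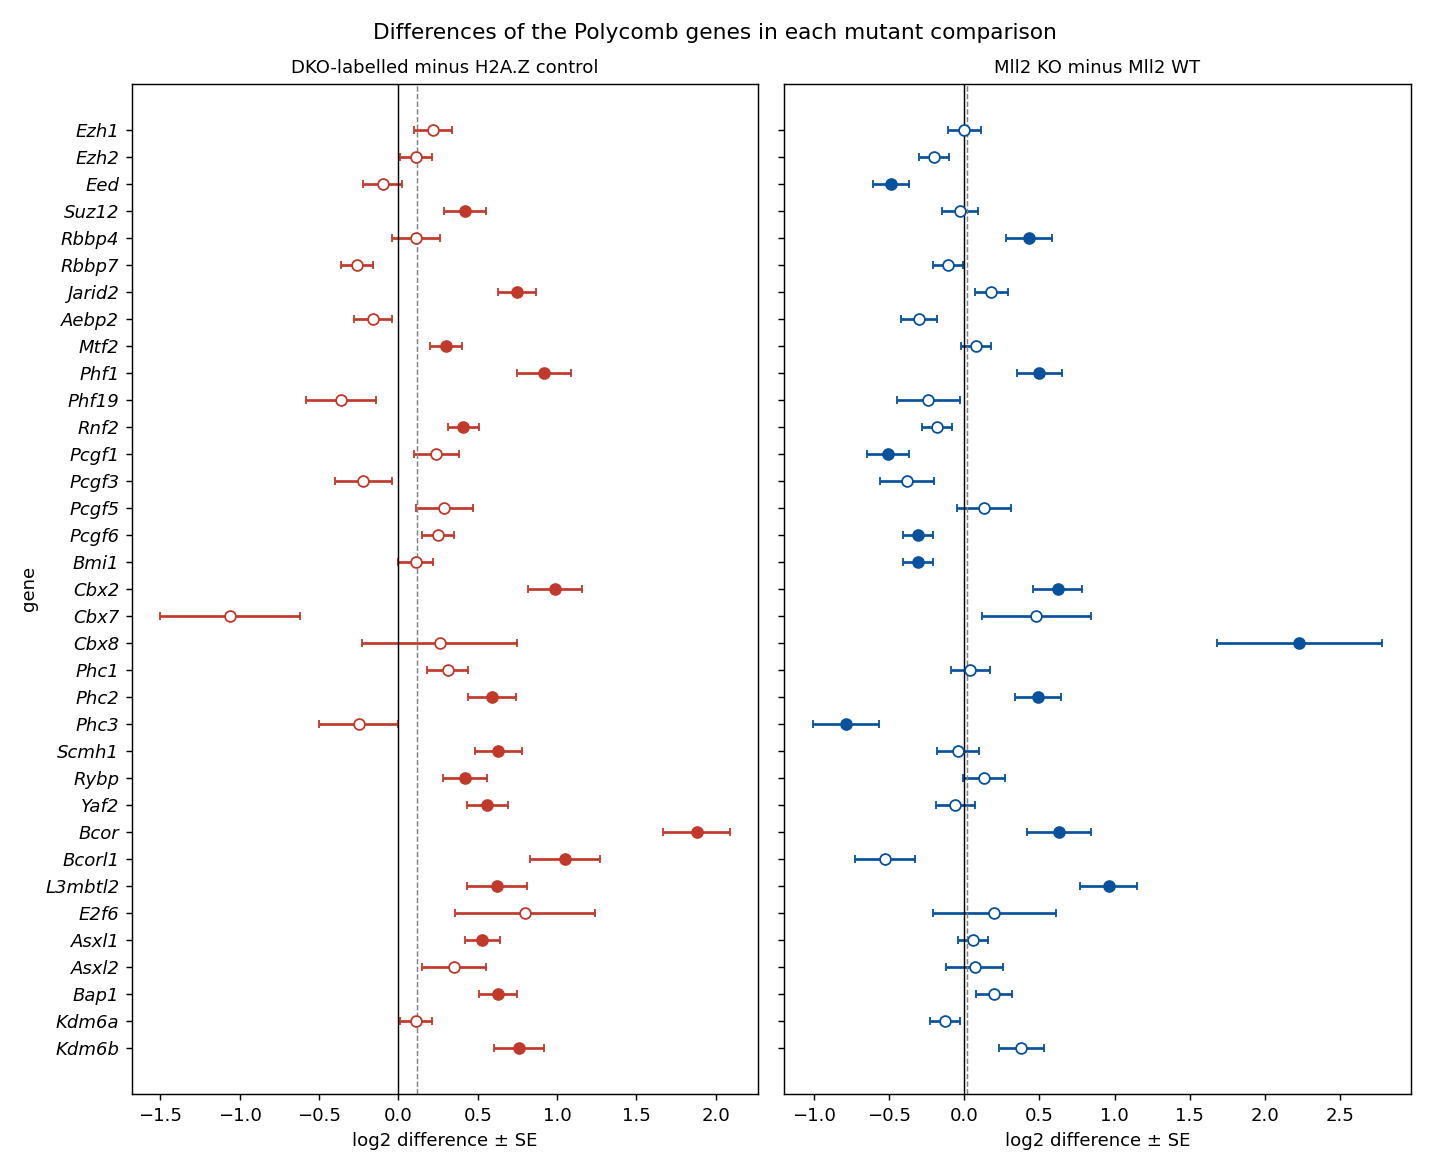
Log2 difference with its standard error (SE) for 35 of the Polycomb genes in the DKO-labelled libraries against the H2A.Z controls and in Mll2 KO against Mll2 WT, where filled points passed the adjusted p of 0.05 and the dashed line is the median of all genes. Pcgf2, Cbx6 and Ring1, all low, are left out; Bcor stands furthest right in the first comparison at 1.88 and Cbx8 in the second at 2.23.

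Among the PRC2 core genes, Eed, whose protein binds methylated H3K27 and stimulates the enzyme, fell in Mll2 KO. It read 321 and 313 CPM in Mll2 WT against 254 and 196 CPM in Mll2 KO, so both KO libraries were below both WT libraries. The log2 difference was -0.49 ± 0.12 (SE), an adjusted p of 0.00467, and it passed in each of the 14 alternatives. In the H2A.Z line Eed read 343 and 347 CPM in the controls against 329 and 314 CPM in the DKO-labelled libraries, a difference of -0.10 ± 0.12 that was not called. With the H2A.Z libraries fitted alone that difference was -0.23 with an adjusted p of 0.0082. Opposite-strand exons of E230029C05Rik cover 12.6% of Eed's exons, and whether counting used the strand is not given in the sources used here.

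Suz12, the subunit that holds PRC2 together, rose in the DKO-labelled libraries. It read 111 and 101 CPM in the controls against 139 and 144 CPM in the DKO-labelled libraries, which did not overlap. The difference was 0.42 ± 0.13 (adjusted p = 0.0204), and the call was lost without H2A.Z control 1 (0.0626), H2A.Z control 2 (0.171), DKO-labelled 1 (0.0846), DKO-labelled 2 (0.121) or Mll2 WT 2 (0.138), and with library size alone (0.101). In the Mll2 line the groups overlapped, at 263 and 257 CPM in WT against 216 and 293 CPM in KO.

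Rbbp4, the paralogue of Rbbp7, rose in Mll2 KO. It read 34.8 and 36.9 CPM in Mll2 WT against 41.5 and 54.8 CPM in Mll2 KO, with the second KO library highest. The difference was 0.43 ± 0.15 (adjusted p = 0.0359). It was 0.17 without Mll2 KO 2 (adjusted p = 0.359), and the call was also lost without Mll2 WT 1 (0.19), Mll2 WT 2 (0.144), H2A.Z control 1 (0.0605), H2A.Z control 2 (0.0603), DKO-labelled 1 (0.0564) or DKO-labelled 2 (0.0569), and with the Mll2 libraries fitted alone (0.0978). Other genes on the opposite strand, Sync and Gm26722, overlap 29.8% of its exons.

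The other 3 core genes were not called in either mutant. Rbbp7 read 2080 and 2020 CPM in the H2A.Z controls against 1740 and 1680 CPM in the DKO-labelled libraries, which lay below them. Its difference was -0.26 ± 0.10 (adjusted p = 0.0678) with TMM. It was -0.38 with library size alone (adjusted p = 0.00532), and with the H2A.Z libraries alone it was -0.38 again (adjusted p = 1.4e-05). Ezh2, the main H3K27 methyltransferase, differed by 0.11 ± 0.10 in the H2A.Z line and by -0.20 ± 0.10 in the Mll2 line, and Ezh1 by 0.22 ± 0.12 and by 0 ± 0.11.

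Jarid2, a DNA-binding cofactor that helps recruit PRC2, rose in the DKO-labelled libraries. It read 56.1 and 55 CPM in the controls against 89.5 and 96.7 CPM in the DKO-labelled libraries. The difference was 0.75 ± 0.12, an adjusted p of 0.000228, and it passed in each of the 14 alternatives. In the Mll2 line the groups overlapped, at 97.2 and 89.9 CPM in WT against 96.6 and 116 CPM in KO (0.18 ± 0.11, adjusted p = 0.236).

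Phf1, a Tudor-domain protein that joins PRC2, rose in both comparisons. It read 15.7 and 14.1 CPM in the H2A.Z controls against 29 and 27.2 CPM in the DKO-labelled libraries, a 1.89-fold rise with a log2 difference of 0.92 ± 0.17 (adjusted p = 0.000835) that held in each of the 14 alternatives. It read 60.2 and 55.6 CPM in Mll2 WT against 66 and 97.7 CPM in Mll2 KO, so the KO libraries were unequal though both above WT. There the difference was 0.50 ± 0.15 (adjusted p = 0.0233). It was 0.77 without Mll2 KO 1 (9.48e-06) and 0.15 without Mll2 KO 2 (0.39), and the call was lost without Mll2 WT 1 (0.0719) or Mll2 WT 2 (0.187) and with the Mll2 libraries fitted alone (0.0747) too.

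Mtf2, the Phf1 paralogue, had the smallest rise of the 16 genes called higher in the DKO-labelled libraries. It read 117 and 107 CPM in the controls against 138 and 137 CPM, with no overlap. The difference was 0.30 ± 0.10 (adjusted p = 0.039), and 13 of the 14 alternatives lost the call. Leaving out 1 library gave adjusted p-values of 0.0901 and 0.276 (H2A.Z control 1 and 2), 0.169 and 0.143 (DKO-labelled 1 and 2), 0.0632 and 0.282 (Mll2 WT 1 and 2) and 0.0835 and 0.0833 (Mll2 KO 1 and 2). The difference was 0.17 without Mll2 WT 2, Mll2 KO 1 or Mll2 KO 2. Aebp2 and Phf19, the remaining accessory genes, differed by -0.16 ± 0.12 and -0.36 ± 0.22 in the DKO-labelled libraries and by -0.30 ± 0.12 and -0.24 ± 0.21 in Mll2 KO, none called.

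Rnf2, which encodes an H2A ubiquitin ligase, rose in the DKO-labelled libraries. It read 112 and 99.2 CPM in the controls against 143 and 137 CPM in the DKO-labelled libraries, all above the controls. The difference was 0.41 ± 0.10 (adjusted p = 0.00772), and the call was lost without H2A.Z control 2 (0.129), DKO-labelled 1 (0.0787) or Mll2 WT 2 (0.076). In the Mll2 line it read 124 and 130 CPM in WT against 113 and 112 CPM in KO, a difference of -0.18 ± 0.10 that was not called.

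Pcgf1 fell in Mll2 KO. It read 888 and 919 CPM in Mll2 WT against 758 and 507 CPM in Mll2 KO, with the second KO library lowest. The difference was -0.51 ± 0.14 (adjusted p = 0.0136), -0.82 without Mll2 KO 1 and -0.30 without Mll2 KO 2, with the call kept in both. With the Mll2 libraries fitted alone the adjusted p was 0.0713. In the H2A.Z line it read 1440 and 1490 CPM in the controls against 1660 and 1800 CPM in the DKO-labelled libraries, a difference of 0.24 ± 0.14 that was not called.

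Pcgf6 and Bmi1 also fell in Mll2 KO. Pcgf6, the subunit of the variant PRC1 that binds with L3MBTL2 and E2F6, read 370 and 341 CPM in Mll2 WT against 293 and 282 CPM in Mll2 KO. Its difference was -0.31 ± 0.10 (adjusted p = 0.0294), lost without Mll2 WT 1 (0.209), DKO-labelled 1 (0.0567) or DKO-labelled 2 (0.0567) and with library size alone (-0.18, adjusted p = 0.145) or the Mll2 libraries alone (0.111). In the H2A.Z line Pcgf6 read 343 and 309 CPM in the controls against 384 and 390 CPM in the DKO-labelled libraries, which lay above them without a call (0.25 ± 0.10).

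Bmi1, also called Pcgf4, belongs to canonical PRC1. It read 282 and 296 CPM in Mll2 WT against 222 and 245 CPM in Mll2 KO, with no overlap. The difference was -0.31 ± 0.10 (adjusted p = 0.0352). It was lost without H2A.Z control 1 (0.0535), H2A.Z control 2 (0.0526), DKO-labelled 1 (0.053), DKO-labelled 2 (0.053), Mll2 WT 1 (0.0945), Mll2 WT 2 (0.167) or Mll2 KO 1 (0.0549), and was -0.19 with library size alone (0.18). It was lost as well with relative log expression factors (0.0502), DESeq2 (0.0557) or the Mll2 libraries alone (0.109). Pcgf3 and Pcgf5, subunits of the same kind of variant PRC1, were not called in either mutant, and nor was Ring1.

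Cbx2, the highest by level of the 4 CBX members, rose in both comparisons. It read 19.3 and 22.3 CPM in the H2A.Z controls against 42.1 and 40.9 CPM in the DKO-labelled libraries, a 1.99-fold rise. The log2 difference was 0.99 ± 0.17 (adjusted p = 0.000447), kept in each of the 14 alternatives. It read 54.3 and 54.1 CPM in Mll2 WT against 66.1 and 101 CPM in Mll2 KO.

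Both KO libraries were thus above WT for Cbx2, the second by more, with a difference of 0.62 ± 0.16 (adjusted p = 0.00789). Cbx2 differed by 0.25 without Mll2 KO 2 (adjusted p = 0.126), and the call was lost without Mll2 WT 2 (0.0774). Cbx8, which lies close to Cbx2 on chromosome 11, rose in Mll2 KO from 11 and 4 counts to 25 and 45 counts. Its difference was 2.23 ± 0.55 (adjusted p = 0.0067) at few counts, 1.67 without Mll2 WT 2 (0.0923) and 1.71 without Mll2 KO 2 (0.0548). In the H2A.Z line Cbx8 had 19 and 25 counts in the controls and 33 and 19 in the DKO-labelled libraries, which overlapped.

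Phc2, one of the 3 Polyhomeotic genes whose proteins join PRC1 units into larger assemblies, rose in both comparisons. It read 33.6 and 33.5 CPM in the H2A.Z controls against 51.7 and 49.3 CPM in the DKO-labelled libraries. The difference was 0.59 ± 0.15 (adjusted p = 0.00931), lost without H2A.Z control 1 (0.0599), H2A.Z control 2 (0.0676), DKO-labelled 1 (0.0709) or Mll2 WT 2 (0.0612). It read 112 and 108 CPM in Mll2 WT against 123 and 187 CPM in Mll2 KO.

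The Phc2 rise in Mll2 KO was carried largely by the second library: 0.49 ± 0.15 (adjusted p = 0.0198) with both, 0.77 without Mll2 KO 1 (7.01e-07) and 0.12 without Mll2 KO 2 (0.413). That call was also lost without Mll2 WT 1 (0.0798) or Mll2 WT 2 (0.152), and with the Mll2 libraries alone (0.0759). Phc3 went the other way, at 13.9 and 12.5 CPM in Mll2 WT against 6.23 and 8.97 CPM in Mll2 KO, with no overlap. Its difference was -0.79 ± 0.22 (adjusted p = 0.0135), lost without Mll2 WT 1 (0.0903), Mll2 WT 2 (0.0523) or Mll2 KO 1 (0.0541). Phc1, the third of them, was not called in either mutant, at 0.31 ± 0.13 in the DKO-labelled libraries and 0.04 ± 0.13 in Mll2 KO.

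Scmh1, a Sex comb on midleg homologue that joins canonical PRC1, rose in the DKO-labelled libraries. It read 18.3 and 14.3 CPM in the controls against 24.5 and 25.9 CPM in the DKO-labelled libraries. The difference was 0.63 ± 0.15 (adjusted p = 0.00432), and 0.46 without H2A.Z control 2 (adjusted p = 0.0987). In the Mll2 line it read 39.5 and 39.1 CPM in WT against 38.2 and 38.1 CPM in KO (-0.04 ± 0.14). Cbx6 and Cbx7 were not called in either mutant, at 0 to 17 counts and 10 to 67 counts a library.

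Bcor, the corepressor that builds variant PRC1 with PCGF1, had the largest difference of the tested members in the DKO-labelled libraries. It read 5.84 and 4.46 CPM in the H2A.Z controls against 16.8 and 20.9 CPM in the DKO-labelled libraries. That was a 3.67-fold rise, or 1.88 ± 0.21 on the log2 scale (adjusted p = 1.11e-05), and every alternative kept the call. In Mll2 KO it rose from 4.53 and 5.47 CPM to 7.72 and 7.76 CPM.

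The Bcor rise in Mll2 KO was 0.63 ± 0.21 (adjusted p = 0.0302), with both KO libraries above both WT libraries, and it was lost without Mll2 WT 1 (0.216), Mll2 WT 2 (0.0759) or Mll2 KO 2 (0.0561), and with the Mll2 libraries alone (0.0702). Bcorl1, its paralogue, read 4.39 and 4.5 CPM in the H2A.Z controls against 9.13 and 9.3 CPM in the DKO-labelled libraries. This 2.07-fold rise was 1.05 ± 0.22 on the log2 scale (adjusted p = 0.00204), and every alternative kept the call. In the Mll2 line Bcorl1 read 12.7 and 16.4 CPM in WT against 8.53 and 11.6 CPM in KO, where KO lay below WT without a call (-0.53 ± 0.20, adjusted p = 0.0515); without Mll2 KO 2 the difference was -0.81 with an adjusted p of 0.00513.

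L3mbtl2, an MBT-domain protein of the PCGF6 complex, rose in both comparisons. It read 45.9 and 52.1 CPM in Mll2 WT against 70.6 and 120 CPM in Mll2 KO, the largest gap between KO replicates among the members at 10 CPM or more (0.77 on the log2 scale). The difference was 0.96 ± 0.19 (adjusted p = 0.00166), 0.49 without Mll2 KO 2 (0.00321), and every alternative kept the call. In the H2A.Z line it read 27.5 and 29.9 CPM in the controls against 43.1 and 45.5 CPM in the DKO-labelled libraries.

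That L3mbtl2 rise was 0.62 ± 0.19 (adjusted p = 0.0245), lost without H2A.Z control 1 (0.137), H2A.Z control 2 (0.0845), DKO-labelled 1 (0.0799), DKO-labelled 2 (0.113) or Mll2 WT 2 (0.112), and with library size alone (0.082). Yaf2 and Rybp are interchangeable subunits of variant PRC1 that stimulate the ligase. Yaf2 read 46.8 and 41.1 CPM in the H2A.Z controls against 61.1 and 68.7 CPM in the DKO-labelled libraries, a difference of 0.56 ± 0.13 (adjusted p = 0.00512), lost without H2A.Z control 2 (0.0856) or DKO-labelled 2 (0.0703). Rybp read 22.7 and 21.3 against 28.4 and 30.5 CPM, a difference of 0.42 ± 0.14 (adjusted p = 0.0365). The Rybp call was lost without H2A.Z control 1 (0.11), H2A.Z control 2 (0.212), DKO-labelled 1 (0.0952), DKO-labelled 2 (0.19) or Mll2 WT 2 (0.187), and with relative log expression factors (0.0673), library size alone (0.144) or DESeq2 (0.0661). For both genes the DKO-labelled libraries lay above the controls, while in the Mll2 line the groups overlapped (-0.06 ± 0.13 and 0.13 ± 0.14). E2f6, at 17 to 39 counts a library, was not called in either mutant.

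PR-DUB removes the ubiquitin that PRC1 adds. Its catalytic subunit Bap1 read 24.2 and 25.6 CPM in the H2A.Z controls against 38.8 and 38.5 CPM in the DKO-labelled libraries, a difference of 0.63 ± 0.12 (adjusted p = 0.00126). Asxl1, an activating partner of BAP1, read 71.6 and 71.7 CPM in the controls against 109 and 97.7 CPM in the DKO-labelled libraries, a difference of 0.53 ± 0.11 (adjusted p = 0.00174). Both genes were above the controls in both libraries and kept the call in each of the 14 alternatives. In Mll2 KO neither was called, at 0.20 ± 0.12 for Bap1 and 0.06 ± 0.10 for Asxl1. Asxl2, at 7.13 to 10.4 CPM, was not called in either mutant.

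Kdm6b, an H3K27 demethylase, rose in the DKO-labelled libraries. It read 28.4 and 29.7 CPM in the controls against 47.6 and 51.2 CPM in the DKO-labelled libraries, with a difference of 0.76 ± 0.16 (adjusted p = 0.00179) that every alternative kept. In the Mll2 line it read 92 and 91.4 CPM in WT against 95.2 and 144 CPM in KO, with no call (0.38 ± 0.15, adjusted p = 0.0624). Kdm6a, the X-linked demethylase, read 70.9 and 64.3 CPM in the H2A.Z controls against 75 and 71 CPM in the DKO-labelled libraries, with no call in either mutant (0.11 ± 0.10 and -0.13 ± 0.10).

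The difference between the mutant effects was tested as the DKO-labelled effect minus the Mll2 KO effect. It was called above 0 for 9 of the 37 tested genes (24.3%, beside 12.9% of all genes) and called below 0 for 0 (beside 6.68% of all genes). The median was 0.32 over the members and 0.12 over all genes. Of the 9 called, Bcorl1 had the largest, 1.58 ± 0.29 (adjusted p = 0.00156), from a rise in the DKO-labelled libraries beside lower values in Mll2 KO, and it was called in each of the 13 alternatives. Bcor followed at 1.25 ± 0.29 (adjusted p = 0.00755), a rise in both that was larger in the DKO-labelled libraries, and it was lost without H2A.Z control 2 (0.0623) or Mll2 WT 2 (0.0819).

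Pcgf1 at 0.76 ± 0.20 (adjusted p = 0.0161) and Pcgf6 at 0.55 ± 0.14 (adjusted p = 0.0121) were genes that had fallen in Mll2 KO. Pcgf1 was 0.42 without Mll2 KO 2, and its call was lost without H2A.Z control 1 (0.0653), H2A.Z control 2 (0.0605), DKO-labelled 2 (0.0834) or Mll2 WT 2 (0.0795). Pcgf6 lost its call without H2A.Z control 2 (0.0937), DKO-labelled 1 (0.0528), DKO-labelled 2 (0.0618), Mll2 WT 1 (0.0702) or Mll2 WT 2 (0.055). Rnf2 differed by 0.58 ± 0.15 (adjusted p = 0.0107), which was lost without H2A.Z control 2 (0.0859), DKO-labelled 1 (0.0598) or Mll2 WT 2 (0.121).

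Scmh1 differed by 0.67 ± 0.20 (adjusted p = 0.0278), lost without H2A.Z control 2 (0.181), DKO-labelled 1 (0.0702), DKO-labelled 2 (0.102), Mll2 WT 1 (0.0852) or Mll2 WT 2 (0.159). Yaf2 differed by 0.62 ± 0.19 (adjusted p = 0.0293), lost without H2A.Z control 2 (0.154), DKO-labelled 1 (0.0534), DKO-labelled 2 (0.133), Mll2 WT 2 (0.313, where it was 0.38) or Mll2 KO 1 (0.0791, where it was 0.40). Jarid2 differed by 0.56 ± 0.16 (adjusted p = 0.0229) and by 0.30 without Mll2 KO 1 (0.0896), and it passed only with Mll2 KO 2 left out among the fits that omitted 1 library; the others gave 0.0693 and 0.0984 (H2A.Z control 1 and 2), 0.0527 and 0.105 (DKO-labelled 1 and 2) and 0.0995 and 0.123 (Mll2 WT 1 and 2). Asxl1 differed by 0.47 ± 0.15 (adjusted p = 0.0386) and by 0.26 without Mll2 KO 1 (0.132). Its call too was kept only with Mll2 KO 2 left out, with 0.111 and 0.129 (H2A.Z control 1 and 2), 0.173 and 0.0593 (DKO-labelled 1 and 2) and 0.157 and 0.163 (Mll2 WT 1 and 2). With library size alone 2 members were called above and 2 below 0, and of the 9 genes Bcor and Bcorl1 kept their call. With relative log expression factors Jarid2 (0.0517), Yaf2 (0.0574) and Asxl1 (0.0813) lost theirs, and Asxl1 also with DESeq2 (0.0899) or the replicate block (0.0554).

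**Figure D3:**
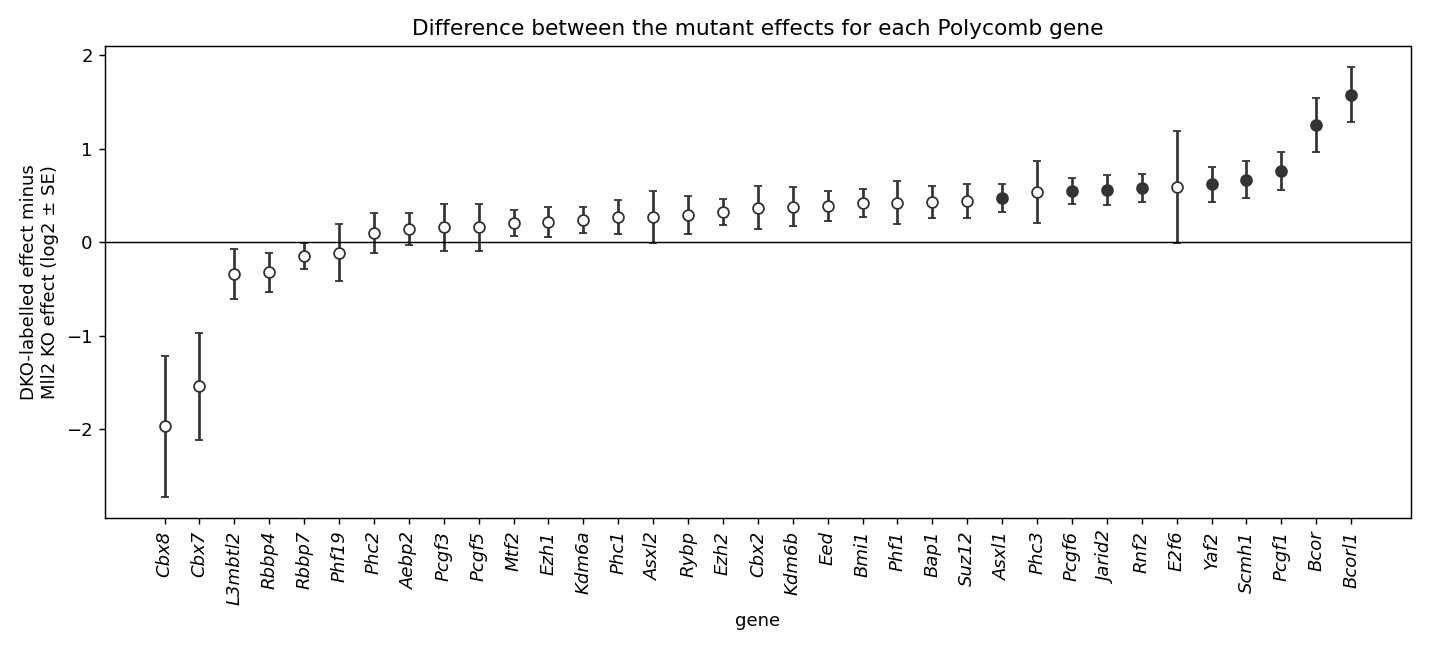
DKO-labelled effect minus Mll2 KO effect (log2, with SE) for 35 Polycomb genes in order of size, where filled points passed the adjusted p of 0.05. The 9 filled points lie at 0.47 to 1.58; Pcgf2, Cbx6 and Ring1 are left out.

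Of the 16 genes higher in the DKO-labelled libraries, 5 were also higher in Mll2 KO (31.2% of the 16 and 71.4% of the 7): Bcor, Cbx2, L3mbtl2, Phc2 and Phf1. Over all genes tested, 988 were called higher in both (5.86%), which is 30.2% of those higher in the DKO-labelled libraries and 40.7% of those higher in Mll2 KO. This overlap rests on the DKO label, which H2afz and H2afv went against. The other 11 were not called in Mll2 KO, and of these Bcorl1, Jarid2, Rnf2, Scmh1, Yaf2 and Asxl1 differed between the mutants by the test above, while Bap1, Kdm6b, Mtf2, Rybp and Suz12 did not pass it. In neither mutant comparison were 14 of the tested members called, and the share of all genes called in neither was not counted.

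Related genes were compared within a library, where the total and the scaling cancel. The ratio of Bcor to Bcorl1 counts was 1.33 and 0.991 in the H2A.Z controls and 1.84 and 2.24 in the DKO-labelled libraries. It was 0.358 and 0.333 in Mll2 WT and 0.905 and 0.672 in Mll2 KO. The DKO-labelled and the Mll2 KO libraries lay above their controls, and the Mll2 libraries all lay below the H2A.Z ones. Directions shared by the lines in these ratios rest on the DKO label, which H2afz and H2afv went against.

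Pcgf3 to Pcgf5 was lower in the DKO-labelled and the Mll2 KO libraries than in their controls. It went from 1.26 and 1.39 to 0.888 and 0.983 in the DKO-labelled libraries. In Mll2 KO it went from 1.63 and 1.61 to 1.2 and 1.06. Kdm6a to Kdm6b went from 2.5 and 2.16 to 1.58 and 1.39 in the DKO-labelled libraries and from 1.74 and 1.81 to 1.54 and 1.05 in Mll2 KO. Again the mutant libraries of each line did not overlap their controls. Rbbp4 to Rbbp7 stayed far below 1, at 0.0121 and 0.0117 against 0.0142 and 0.0165, and at 0.0169 and 0.0176 against 0.0208 and 0.0296. Ezh1 to Ezh2 was not separate in the H2A.Z line, at 0.16 and 0.161 against 0.185 and 0.161. It was higher in Mll2 KO (0.103 and 0.104 in WT against 0.124 and 0.114). Asxl1 to Asxl2 was higher in the DKO-labelled libraries (9.9 and 10.1 against 10.5 and 12.3). In the Mll2 line it overlapped (18.7 and 17.6 against 18.6 and 17.5). Mtf2 to Phf19 was also higher in the DKO-labelled libraries (14 and 12.6 against 18.1 and 24.9). It overlapped in the Mll2 line (10.7 and 14.6 against 14 and 17.6). Rybp to Yaf2 was lower in the DKO-labelled libraries (0.486 and 0.518 against 0.464 and 0.444). It was higher in Mll2 KO (0.697 and 0.68 against 0.774 and 0.795). Change was thus unequal in some pairs and lines, and no test was made of these ratios. How often ratios of other genes separate in the same way was not counted.

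**Figure D4:**
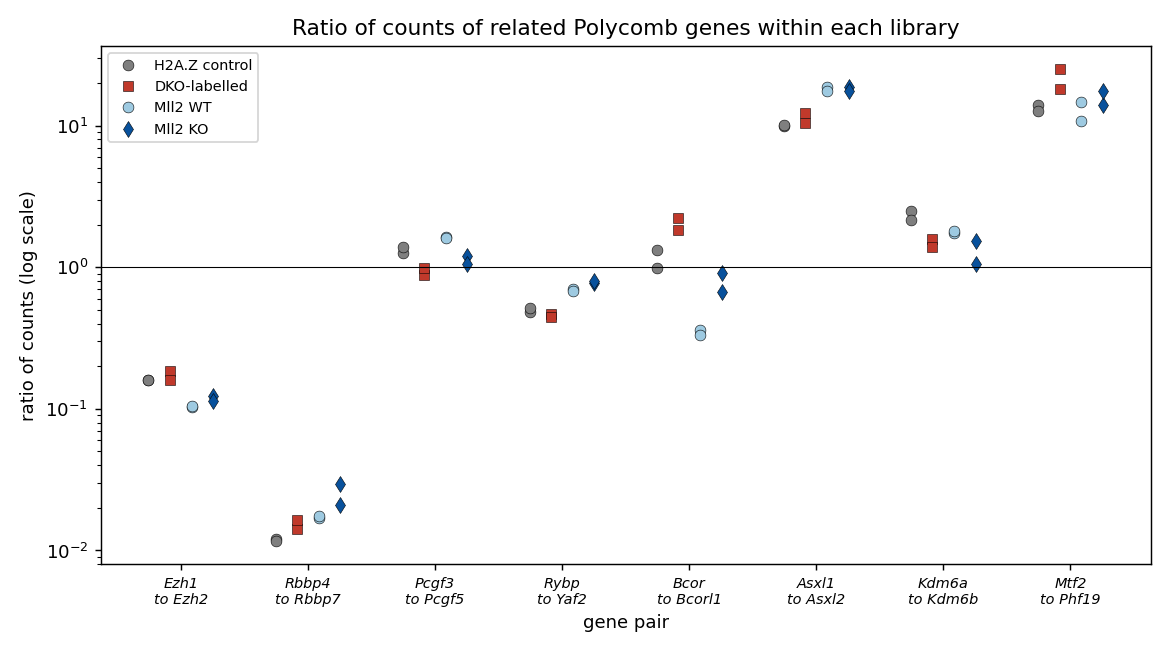
Ratio of the counts of related Polycomb genes within each library, on a log axis, with 1 point a library and the line at 1. Bcor to Bcorl1 lies higher in the DKO-labelled and the Mll2 KO libraries than in their controls, and Pcgf3 to Pcgf5 lower. Ring1 to Rnf2 and Pcgf2 to Bmi1 are left out for low counts.

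The control groups themselves differed in their Polycomb genes. In the H2A.Z controls, 19 of the 37 tested genes were lower than in Mll2 WT (51.4%, beside 25.3% of all genes) and 3 were higher (8.11%, beside 19% of all genes). The median was -0.41 over the members and 0.02 over all genes. Both H2A.Z controls lay below both Mll2 WT libraries for 23 of the 37 tested members (62.2%, beside 38% of all genes), the 19 called among them, and above both for 5 (13.5%, beside 37.2% of all genes). Line, animals and library batch cannot be told apart here, and this comparison shares its samples with both mutant comparisons.

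Among the 19 genes lower in the H2A.Z controls, the largest gaps were in Phf1 (-1.96 ± 0.17, adjusted p = 5.76e-07), Phc2 (-1.72 ± 0.15, adjusted p = 8.93e-07), Bcorl1 (-1.71 ± 0.21, adjusted p = 1.16e-05) and Kdm6b (-1.66 ± 0.16, adjusted p = 1.11e-06). Those higher in the H2A.Z controls were Pcgf1 (0.70 ± 0.14, adjusted p = 0.00103), Cbx8 (1.98 ± 0.57, adjusted p = 0.0104) and Cbx6. Cbx6 had 16 counts over both H2A.Z controls and 0 over both Mll2 WT libraries. With a floor of 3 counts for the Mll2 WT group as a whole, this was 7.27-fold higher, taking the 16 counts as exact. Exons of Npcd on the same strand overlap 9.7% of the exons of Cbx6. Of the genes called higher in the DKO-labelled libraries, Bcor, Yaf2, Rnf2 and Mtf2 had a mean level there above that in Mll2 WT. The rest, Phf1, Cbx2, Phc2 and Kdm6b among them, had a mean below it, Jarid2 only just (93.1 against 93.5 CPM).

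Of 32 further genes for partners of these complexes, 31 were tested. In the DKO-labelled libraries 11 were higher (35.5%, beside 19.4% of all genes) and 1 was lower (3.23%, beside 11.5%), with a median of 0.33. In Mll2 KO 7 were higher (22.6%, beside 14.4% of all genes) and 6 lower (19.4%, beside 16.2%), with a median of 0.07. Fbrs and Fbrsl1, paralogues of the AUTS2 subunit of variant PRC1, rose in the DKO-labelled libraries by 1.05 ± 0.19 (adjusted p = 0.00065) and 0.97 ± 0.12 (adjusted p = 3.84e-05). Fbrs also rose in Mll2 KO, by 1.10 ± 0.17 (adjusted p = 0.000146), while Fbrsl1 was not called there (0.16 ± 0.12, adjusted p = 0.307). Auts2 itself rose in the DKO-labelled libraries (0.36 ± 0.12, adjusted p = 0.0322) and fell in Mll2 KO (-0.64 ± 0.12, adjusted p = 0.000736). The casein kinase subunits Csnk2a1 and Csnk2a2, which associate with the same complexes, rose in the DKO-labelled libraries by 0.77 ± 0.14 and 0.60 ± 0.13 and in Mll2 KO by 0.43 ± 0.14 (adjusted p = 0.0245) and 0.45 ± 0.13 (adjusted p = 0.016). In Mll2 KO the histone deacetylase gene Hdac2 fell (-0.67 ± 0.10, adjusted p = 0.000126) and Dcaf7, a scaffold protein gene, rose (0.55 ± 0.11, adjusted p = 0.00108). Hdac1 was the 1 gene lower in the DKO-labelled libraries (-0.90 ± 0.29, adjusted p = 0.0262).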

How the data were processed

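RNA was measured in 8 libraries of full-grown oocytes, amplified with SMART-Seq v4 and made into libraries from 200 pg of cDNA, per the labels' protocols. The deposited values are raw counts per gene. Trim Galore 0.6.4, STAR 2.7.3, RSEM 1.3.1 and mm10 are listed in the submitters' processing notes; neither the gene annotation nor the strand setting is given in the sources used here. Groups came from the sample titles. edgeR 4.0.16 (R 4.3.3) was fitted once to all libraries with 4 group means (4 residual degrees of freedom, quasi-likelihood, robust, TMM), after filterByExpr kept 16847 of 35976 genes; 8787 had no count in any library. p-values were adjusted by Benjamini-Hochberg over all genes tested. SE is the size of the log2 difference over the square root of F. Every member is named; library values are given for each member called in a mutant comparison, and partner genes are those with the smallest p, together with any that is the only one in its direction. Alternatives were relative log expression factors, library size alone, no filter, DESeq2 1.42.0, a replicate block, each line fitted alone and leaving out each library. The script was tested on simulated data. The members and lists were chosen with earlier results of these data known. Library totals limit precision: genes at a few counts, such as Ring1, Cbx6 and Cbx8, carry wide errors, which cover counting and replicate spread only.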

Additional observations from a re-analysis of the deposited data

Results flagged for a closer look

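The following 9 genes had mutant effects that differed by the test of the difference itself, in edgeR's quasi-likelihood fit over 16847 genes, given as the DKO-labelled effect minus the Mll2 KO effect on the log2 scale. Bcorl1 differed by 1.58 and Bcor by 1.25. Pcgf1 differed by 0.76, Scmh1 by 0.67 and Yaf2 by 0.62. Rnf2 differed by 0.58, Jarid2 by 0.56, Pcgf6 by 0.55 and Asxl1 by 0.47. Bcorl1 is the 1 gene of these 9 that was called in each of the 13 alternatives. The libraries labelled DKO held more H2afz and H2afv counts than their controls, so the sign and the size of each value, and which genes passed, rest on that label.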

How the results depend on the processing

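Each of the 37 calls in the 2 mutant comparisons and the difference between them kept its direction: of their 509 values under alternatives, 372 kept their side of the threshold, 137 did not and 0 reversed. In the DKO-labelled comparison the 16 genes called higher became 8 to 15 when 1 library was left out, and the 0 lower became 0 to 5. The lower count was 1 with relative log expression factors, 1 with library size alone, 1 with DESeq2 and 5 with the H2A.Z libraries fitted alone. In Mll2 KO the 7 higher became 1 to 10 and the 5 lower 2 to 9 when 1 library was left out. Fitted alone, the Mll2 libraries gave 3 higher and 2 lower, and library size alone gave 3 lower. For the difference between the mutant effects the 9 above 0 became 1 to 16 and the 0 below became 0 to 3 when 1 library was left out, and library size alone gave 2 above and 2 below. Between the controls the 3 higher became 2 to 3 and the 19 lower 15 to 19. The shares of all genes called shifted between these settings as well. The cause of these shifts was not tested. Replicate numbers did not pair the libraries, with a correlation of same-numbered deviations of 0.04 in the H2A.Z line and -0.022 in the Mll2 line; with the replicate block the members were 15 higher and 0 lower in the DKO-labelled comparison, 7 and 6 in Mll2 KO, and 8 and 0 for the difference. Counts limited the low genes most: the standard errors of Ring1, Cbx6, Cbx7 and E2f6 in the mutant comparisons were 0.36 to 2.04 on the log2 scale.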
